A study of Mus musculus with 31 samples.

Results

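Granulocyte-macrophage progenitors (GMP) were compared with lymphoid-primed multipotent progenitors (MPP4) from mouse bone marrow, using the 4 arrays titled GMP and the 5 titled MPP4, which are 9 of the 31 arrays of the series. Both groups came from untreated wild-type C57BL/6 mice, and neither age nor sex was given in the sources used here. Cells were enriched for cKit, depleted of mature cells by lineage antibodies and sorted in 2 passes, with 20000 cells per sample taken for RNA. MPP4 were gated as lineage-negative, cKit+, Sca1+ and Flk2+, and GMP as lineage-negative, cKit+, Fc gamma receptor+ and CD34+, so both groups share the lineage-negative cKit+ gate. The replicates are described as biological, but whether marrow of several mice was pooled is not given in the sources used here. The same GMP samples were used again as control material in another study of the submitters.

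MPP4 are multipotent cells that still carry part of the stem cell programme, have switched on early lymphoid genes and express the cytokine receptor Flt3 (also called Flk2). GMP stand later on the myeloid path and give rise to neutrophils, monocytes and macrophages, along with some eosinophils, basophils and mast cells. At the GMP and promyelocyte stages myeloid cells make the contents of the primary (azurophil) granules, which are serine proteases and myeloperoxidase that are folded and glycosylated in the endoplasmic reticulum. The contents of the secondary granules, such as lactoferrin, are made later, in myelocytes.

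The deposited values are log2 intensities, and they fell into 5 sets of arrays with a common level. GMP 1, 2 and 3 lay in a set with the pre-granulocytes (PreGr) and granulocytes (Gr), with array medians of 7.27 to 7.29, and MPP4 1, 2 and 3 lay in a set with the common myeloid progenitors (CMP), at 7.02 to 7.05. GMP 4, MPP4 4 and MPP4 5, with medians of 6.86, 6.92 and 6.91, shared a set with 1 long-term stem cell array and 1 MPP3 array. The labels do not name these sets, and for the other 6 arrays of the comparison the set and the population cannot be told apart. All levels below are log2 values after quantile normalization of all 31 arrays together, given as mean ± SD (n = 4 GMP arrays and 5 MPP4 arrays), and changes are GMP minus MPP4 on that scale, ± standard error where one is given. A fit with limma on these values called 4964 of 19938 genes (24.9%) at a Benjamini-Hochberg adjusted p under 0.05. A second fit with the array set as a block, whose contrast rests on GMP 4 against MPP4 4 and 5, called 1143 (5.73%). A gene is said here to have risen or fallen in GMP only if both fits called it in the same direction, which held for 991 genes (4.97%), with 528 higher (2.65%) and 463 lower (2.32%). Without MPP4 4 that contrast is 1 array against 1, with the spread taken from the rest of the fit, and the number called in both fits was 612. More than 4-fold differences were found for 60 of the higher and 50 of the lower genes. For 493 of the higher genes and 431 of the lower genes, no GMP array overlapped any MPP4 array, against 2344 (11.8%) and 1666 (8.36%) of all genes.

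The direction balance of the first fit depended on the scale. On the deposited values 4719 genes were called higher and 539 lower (89.7% higher), with the median of all genes at 0.24. On values centred on each array's median the split was 4179 to 1908 (68.7% higher), and on the quantile-normalized values 2784 to 2180 (56.1% higher), with the median gene at 0.02. For calls made in both fits the split was 528 to 463 (53.3% higher), 465 to 219 on the deposited values (68.0%) and 592 to 275 on the centred values (68.3%). The background for the counts in each list below is the 2.65% of all genes that rose and the 2.32% that fell, and 1 or 2 called genes in a list of about 20 to 30 stand close to it.

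The GMP and MPP4 arrays of separate sets gave a comparison that shares no array with the second fit's contrast. Of the 1143 genes called in the set-adjusted fit, 1070 (93.6%) had the same sign in GMP 1 to 3 against MPP4 1 to 3, against 63.7% of all genes. Of the 991 genes called in both fits, 896 (90.4%) were also called in the same direction in that comparison. Over all 19938 genes, it called 6989 in either direction. The first fit also uses GMP 1 to 3 and MPP4 1 to 3. The 90.4% was thus partly fixed in advance and is no separate support. The size of the change differed between these split comparisons, by a limma test of the difference, for 450 genes. Of the genes named in the text it differed for Ly6a2, Hvcn1, Adgre1, Clec4a2, Gla, Gimap8, Cebpd, Irf8, Ctla2a, Hoxa10, Gpr141 and Lat (adjusted p = 0.00174 for Gpr141 to 0.0373 for Gla).

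The transcripts of the sorted surface proteins were read first, apart from that of Sca1, which was not among the markers chosen for this check. Flt3, the receptor that defines MPP4, was 10.71 to 11.90 in MPP4 and 7.59 to 7.86 in GMP, a lower level in GMP (log2 change -3.59 ± 0.19, adjusted p = 7.13e-14). Fcgr3, which encodes a low-affinity IgG receptor detected by the Fc gamma receptor antibody, was 10.06, 10.15, 10.01 and 10.14 in GMP and 6.85 to 7.01 in MPP4, 8.87-fold higher in GMP (3.15 ± 0.12, adjusted p = 1.88e-17). Fcgr2b, the inhibitory receptor of that family, rose 2.98-fold. Cd34, for which GMP were sorted as positive, fell 2.08-fold, from 11.81 ± 0.06 to 10.75 ± 0.11, but on the deposited values its change was -0.44 and was not called (adjusted p = 0.14). Kit, the stem cell factor receptor on which both gates rest, was 10.96 ± 0.07 in MPP4 and 10.20 ± 0.18 in GMP and was called in the first fit only, with an adjusted p of 0.0748 in the set-adjusted fit and 0.599 in the first fit on the deposited values. Cd48 and Slamf1 (CD150), which neither gate names, were not called (adjusted p = 0.229 and 0.247). Because the cells were chosen on these proteins, the Flt3 and Fc receptor differences check the labels and are no separate finding.

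Among the 31 expression lists examined, the primary granule list had the highest median change in GMP. It also holds surface proteins such as Ms4a3 and Clec12a, and the lists were chosen with earlier results of these data known. Of 25 measured genes in the list, 13 rose (2.65% of all genes did so), none fell, and the median change was 1.65 against 0.02 over all genes. Ms4a3, a membrane protein of granulocyte-monocyte progenitors, was 11.85, 12.04, 11.94 and 12.21 in the GMP arrays and 6.19, 6.17, 5.58, 6.28 and 6.66 in the MPP4 arrays. The groups were far apart on every array, and the 57.0-fold difference (5.83 ± 0.38, adjusted p = 3.45e-12) was the largest rise of all named genes. Elane, neutrophil elastase, was 11.81, 12.01, 11.94 and 11.27 in GMP and 6.67 to 7.15 in MPP4, 27.8-fold higher in GMP (4.80 ± 0.26, adjusted p = 8.52e-14). Ctsg, the protease cathepsin G, was 12.44 to 12.82 in GMP and 8.30 to 9.29 in MPP4, 14.1-fold higher. Prtn3, proteinase 3, which lies directly beside Elane in the annotation, was 11.26, 11.50 and 11.52 in GMP 1 to 3, 9.96 in GMP 4 and 7.93 to 8.38 in MPP4 (2.96 ± 0.30). Its set-adjusted change, which rests on GMP 4, was 1.98 ± 0.39 (adjusted p = 0.00233).

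The promoters of the 4 genes just described, all members of the primary granule list, are shown beside that of Dntt, the gene with the largest fall. They were chosen after their values were seen. Each window runs from 250 bases before the gene's start to 50 after it, from RefSeq (build GRCm38.p6), written 5′ to 3′ on the gene's own strand. Capitals mark matches on either strand to 3 short motifs of myeloid and lymphoid transcription factors: TTGCNNAA for C/EBP, GAGGAA for PU.1 and TGTGGT for RUNX.
Elane, chr10:79886062-79886361, plus strand: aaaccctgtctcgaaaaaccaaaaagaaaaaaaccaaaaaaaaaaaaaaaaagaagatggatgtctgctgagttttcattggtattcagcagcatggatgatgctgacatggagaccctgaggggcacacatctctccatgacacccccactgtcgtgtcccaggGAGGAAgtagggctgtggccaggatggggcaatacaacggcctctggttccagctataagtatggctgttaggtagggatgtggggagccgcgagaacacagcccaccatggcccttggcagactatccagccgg
Prtn3, chr10:79879417-79879716, plus strand: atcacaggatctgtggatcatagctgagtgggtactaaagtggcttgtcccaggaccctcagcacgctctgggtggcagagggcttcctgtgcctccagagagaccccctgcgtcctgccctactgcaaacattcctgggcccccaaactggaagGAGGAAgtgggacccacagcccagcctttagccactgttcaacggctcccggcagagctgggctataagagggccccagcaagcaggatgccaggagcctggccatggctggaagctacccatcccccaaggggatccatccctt
Ctsg, chr14:56102525-56102824, minus strand: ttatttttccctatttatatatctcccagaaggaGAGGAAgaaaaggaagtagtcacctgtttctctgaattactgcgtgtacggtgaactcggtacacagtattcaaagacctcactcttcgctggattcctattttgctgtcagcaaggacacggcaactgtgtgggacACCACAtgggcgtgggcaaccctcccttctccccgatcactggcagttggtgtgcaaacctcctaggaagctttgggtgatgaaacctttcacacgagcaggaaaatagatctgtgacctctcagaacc
Ms4a3, chr19:11640802-11641101, minus strand: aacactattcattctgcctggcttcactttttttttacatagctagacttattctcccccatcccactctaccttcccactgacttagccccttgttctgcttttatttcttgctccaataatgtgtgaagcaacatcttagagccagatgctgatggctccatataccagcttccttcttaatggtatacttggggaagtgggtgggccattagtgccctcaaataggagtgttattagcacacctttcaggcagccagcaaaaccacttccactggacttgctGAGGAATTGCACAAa
Dntt, chr19:41029025-41029324, plus strand: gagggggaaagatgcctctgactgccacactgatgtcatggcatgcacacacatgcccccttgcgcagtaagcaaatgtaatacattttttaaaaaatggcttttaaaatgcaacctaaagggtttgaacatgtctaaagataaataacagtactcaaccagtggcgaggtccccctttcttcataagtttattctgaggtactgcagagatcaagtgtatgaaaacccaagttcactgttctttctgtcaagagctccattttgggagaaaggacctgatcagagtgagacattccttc
Each of the 4 windows of Elane, Prtn3, Ctsg and Ms4a3 held 1 match to GAGGAA. It starts 85 bases before the start of Elane, 95 before that of Prtn3 and 216 before that of Ctsg. In Ms4a3 it lies after the gene's start. Ctsg also held 1 match to the RUNX letters, on the other strand, and Ms4a3 held 1 match to TTGCNNAA directly after its GAGGAA. None of the 3 motifs was in the Dntt window. Over all 32851 RefSeq promoter windows of the same length, 28.3% held GAGGAA, 10.8% TTGCNNAA and 16.8% TGTGGT. Among the 12 windows of primary granule genes that rose, 7 held GAGGAA, 3 held TTGCNNAA and 5 held TGTGGT. Among 501 windows of all genes higher in GMP the shares were 32.1%, 10.6% and 17.2%, and among 517 windows of genes lower in GMP they were 28.6%, 9.28% and 15.5%. These matches describe letters in a window and show no binding.

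Further members of the primary granule list rose as well. Hp, haptoglobin, a haemoglobin-binding protein of myeloid cells, was 11.33 to 11.75 in GMP and 6.42 to 6.95 in MPP4, 30.3-fold higher. Cst7 (cystatin F, an inhibitor of cathepsins) rose by 2.94 ± 0.30, although its set-adjusted p was 0.064 without MPP4 4. Prss57, a serine protease of the same granules, rose by 2.00 ± 0.21 and Clec12a, an inhibitory lectin receptor, by 2.88 ± 0.36. Mpo, myeloperoxidase, did not pass the rule. It was already 10.48 to 11.68 in MPP4 and reached 13.10 to 13.26 in GMP with a change of 2.06 ± 0.26 in the first fit and 1.43 ± 0.43 (adjusted p = 0.0535) in the set-adjusted fit. Slpi, Fcnb and Serpinb1a were higher by 2.52, 1.53 and 1.27 in the first fit and were not called in the set-adjusted fit (adjusted p = 0.143, 0.267 and 0.0977). Without MPP4 4, 8 members of the list were called in both fits, all higher.

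**Figure D1:**
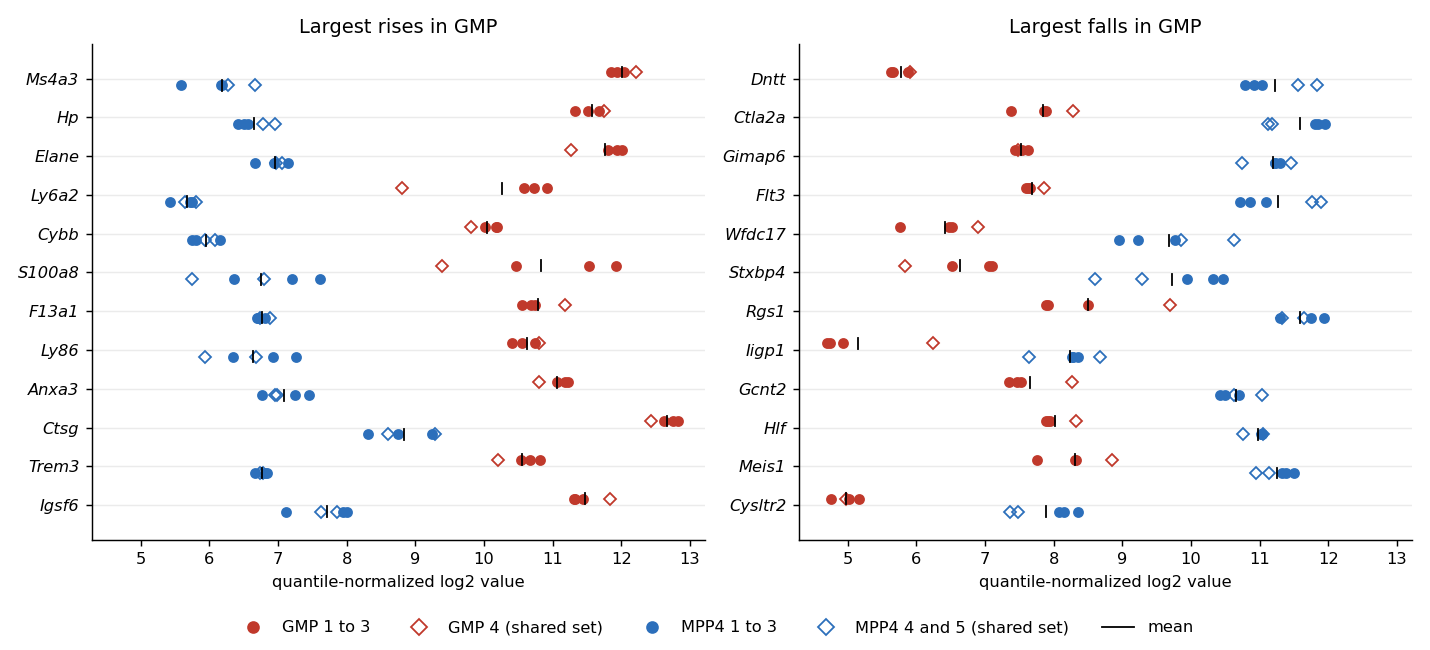
Quantile-normalized log2 values of the 12 largest rises (left) and 12 largest falls (right) in GMP, with GMP arrays in red, MPP4 arrays in blue, open diamonds for the arrays of the shared set and black bars for group means. No GMP array overlaps an MPP4 array for any of the 24 genes, and the GMP 4 diamond stands apart from GMP 1 to 3 for Ly6a2, Rgs1 and Iigp1.

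The machinery of the endoplasmic reticulum rose alongside the granule proteins. Of 33 measured genes for folding, translocation and glycosylation, 18 rose and none fell, 32 had a higher mean in GMP, and the median change was 0.76. P4hb, a protein disulphide isomerase, was 11.49 to 11.64 in GMP and 9.84 to 10.48 in MPP4, a 2.64-fold rise (1.40 ± 0.11, adjusted p = 2.84e-10). Pdia6, of the same enzyme family, rose 2.54-fold, and Hyou1, a chaperone of the Hsp70 type, rose by 1.20 ± 0.10. Ssr4, a subunit of the complex at the translocation pore, rose 2.91-fold, with a set-adjusted p of 0.072 without MPP4 4. Pdia4 rose 2.45-fold, with 0.168 without that array. Hsp90b1, an abundant chaperone, rose by 0.62 from a level of 11.72 to 12.33 in MPP4. Without MPP4 4, where the set-adjusted contrast is 1 array against 1, the count was 10, while the list's set-adjusted median was 0.76 against 0.69 with it. The direction of the list's median was the same on the deposited and the centred values, at 1.30 and 1.11.

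Genes of secondary and tertiary granules showed a different pattern. Of 22 measured genes, 3 rose (Hp, S100a8 and Cybb) and none fell, with a median change of 0.45. Ltf, lactoferrin, was 5.92 to 6.43 in GMP and 5.74 to 6.06 in MPP4, while PreGr reached 12.71 ± 0.15. Camp (cathelicidin) and Ngp (neutrophilic granule protein) were 6.96 to 8.48 and 6.42 to 7.78 in GMP, against means of 13.20 and 12.98 in PreGr, and neither passed both fits (set-adjusted p = 0.894 and 0.951). S100a8, a calcium-binding protein abundant in neutrophils, was 10.46, 11.92, 11.53 and 9.39 in GMP and 5.75 to 7.62 in MPP4, with GMP 4 the lowest of the GMP arrays. It rose 16.9-fold (4.08 ± 0.45, set-adjusted change 3.12 ± 0.68, adjusted p = 0.00674). S100a9, its partner, was 10.46, 12.13 and 11.78 in GMP 1 to 3, 8.69 in GMP 4 and 7.34 to 9.21 in MPP4, so the groups overlapped, and it missed the threshold with the set as a block (adjusted p = 0.583). The first fit alone called 10 of the 22 higher. GMP 1 to 3 shared their array set with PreGr and Gr, in which S100a8 and S100a9 were 13.29 to 13.34 on average, and the part of the set in these values was not tested.

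Of the phagocyte NADPH oxidase, which makes superoxide in neutrophils and macrophages, the catalytic subunit rose. Cybb (gp91phox) was 10.02, 10.17, 10.19 and 9.82 in GMP and 5.75 to 6.16 in MPP4, 17.2-fold higher (4.10 ± 0.15, adjusted p = 1.47e-17), with little spread within either group. It was the only one of 8 measured oxidase genes that passed both fits. Its membrane partner Cyba, the cytosolic subunit Ncf1 and the proton channel Hvcn1 were higher by 1.31, 1.19 and 1.36 in the first fit and not called in the set-adjusted fit (adjusted p = 0.516, 0.204 and 0.194). Ncf4, another cytosolic subunit, was at the edge (0.90 and an adjusted p of 0.0518). Rac1 and Rac2, the small GTPases of the complex, changed by 0.00 and 0.22 and were not called. Alas1, the first enzyme of haem synthesis, rose 7.32-fold, from 7.47 to 8.06 in MPP4 to 10.54 to 10.72 in GMP. It was 1 of 2 genes of 17 measured in the haem and iron list that rose. The other was Ftl1, ferritin light chain, whose set-adjusted p was 0.0879 without MPP4 5.

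Monocyte and macrophage genes rose with the granule genes. Of 25 measured genes in that list 9 rose and none fell, with a median change of 0.81, and the same number was called without MPP4 4. F13a1, coagulation factor XIII A of monocytes, was 10.55 to 11.18 in GMP and 6.70 to 6.88 in MPP4, 16.3-fold higher (4.03 ± 0.21, adjusted p = 5.04e-14). Ly86 (MD-1), which pairs with a Toll-like receptor relative, rose 16.0-fold. Ccr2, the chemokine receptor that lets monocytes leave the marrow, was 9.26 to 9.72 in GMP and 6.26 to 6.80 in MPP4, 7.73-fold higher. Csf1r, the receptor of the macrophage growth factor, was 8.60 to 8.86 in GMP and 6.49 to 7.08 in MPP4, 3.99-fold higher (2.00 ± 0.11). Adgre1, which encodes the macrophage antigen F4/80, rose by 1.95 ± 0.15 to a level of 6.93 to 7.59. Mpeg1, perforin-2, rose by 1.33 ± 0.19, with a set-adjusted p of 0.123 without MPP4 5.

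Lectins and pattern receptors made up a further part of the rise. In the list of Fc receptors and C-type lectins 6 of 20 measured genes rose, with a median of 0.58. Clec5a, an activating lectin of myeloid cells, rose 10.7-fold (3.42 ± 0.19). Clec4a2 rose 8.52-fold in the first fit, but GMP 4 (7.02) lay below GMP 1 to 3 (8.63 to 9.21), and the change differed between the split comparisons (adjusted p = 0.00224). Clec7a, the beta-glucan receptor dectin-1, rose 3.55-fold. Of 19 Toll-like receptor genes and adaptors 3 rose: Tlr1 by 1.84 ± 0.16, Cd14 by 1.44 ± 0.22 and Irak3 by 0.92 ± 0.16 (set-adjusted p for Irak3 0.213 without MPP4 4). Trem3 and Igsf6, surface receptors of myeloid cells, rose 13.8-fold and 13.6-fold, and Anxa3, an annexin of neutrophils, rose 15.8-fold. Ly6a2, in a family of near-identical genes that a probe can confuse, was 10.58 to 10.92 in GMP 1 to 3, 8.81 in GMP 4 and 5.42 to 5.81 in MPP4, and its change differed between the split comparisons (adjusted p = 0.0159).

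Genes of eosinophils, basophils and mast cells rose in GMP as well. Of 17 measured 5 rose and none fell, with a median of 0.51, and both counts were the same without MPP4 4. Prg2, the eosinophil major basic protein, was 9.57 to 10.35 in GMP and 6.21 to 7.60 in MPP4, 9.76-fold higher (3.29 ± 0.36, adjusted p = 9.03e-08). Mcpt8, a protease of basophils, was 9.69 to 10.66 against 6.14 to 7.95, 7.62-fold higher. Cpa3, the mast cell carboxypeptidase, rose 7.78-fold, and Hdc, which makes histamine, rose 8.02-fold. In CMP, Cpa3 was 9.76 ± 0.38, while Prg2 was 6.47 ± 0.04, close to MPP4. In samples of sorted bulk cells, fewer cells of a type and less RNA per cell cannot be told apart.

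Lysosomal enzymes rose in GMP, with 8 of 22 measured genes called and a median of 0.63, and all 22 had a higher mean in GMP. Ctsh, cathepsin H, was 8.58 to 9.06 in GMP and 6.62 to 6.88 in MPP4, 4.27-fold higher (2.09 ± 0.14). Hexa, a subunit of beta-hexosaminidase, rose 2.49-fold, Ctsz, cathepsin Z, 2.43-fold and Gla, alpha-galactosidase A, 2.22-fold. Gla was the one of the 4 for which the split comparisons differed (adjusted p = 0.0373), with the larger change within the shared set and 0.79 across sets. Lamp1, a lysosomal membrane protein, rose by 1.02 ± 0.13.

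**Figure D2:**
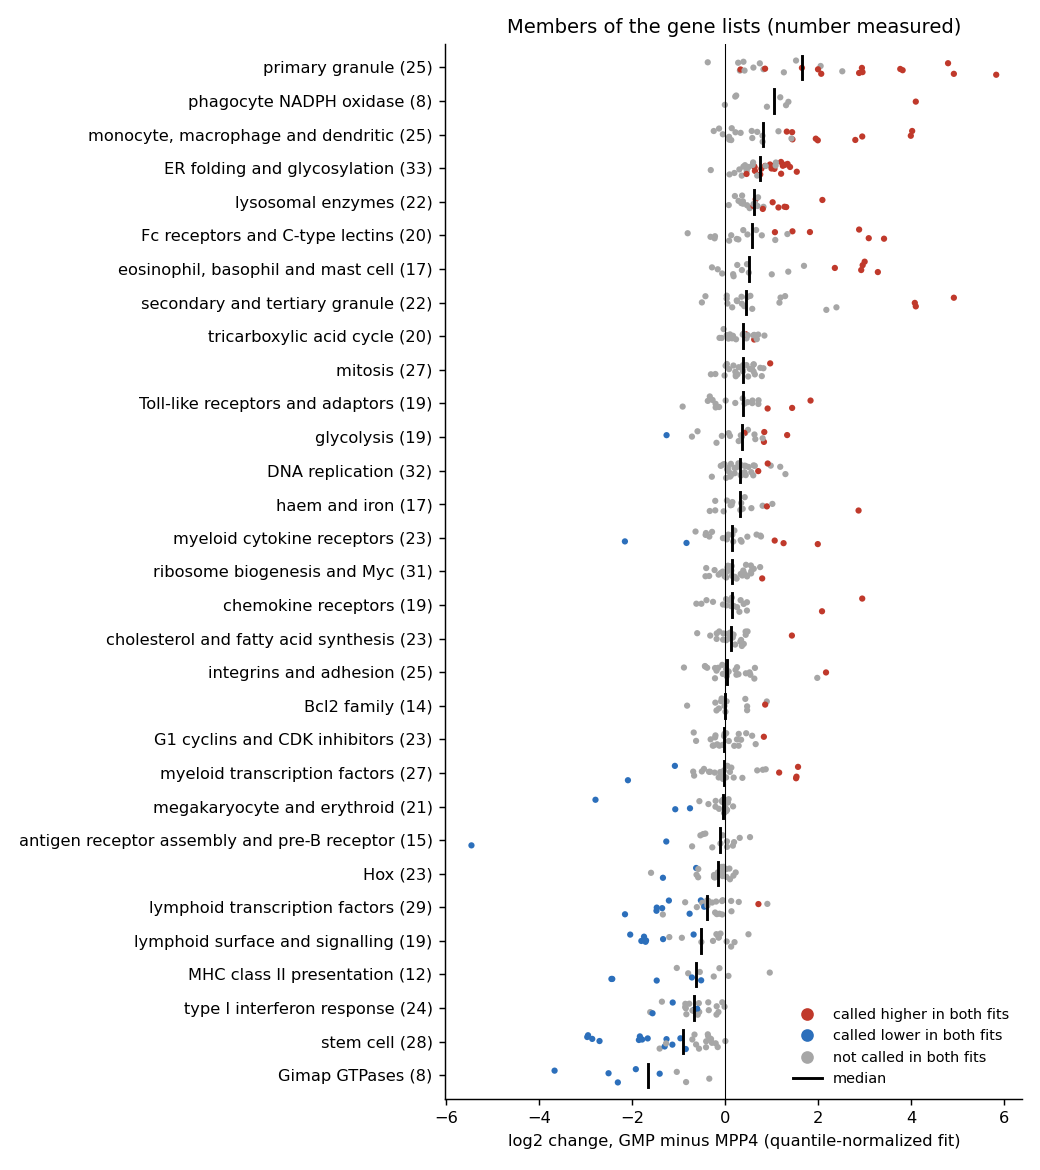
Each point is a measured member of a list, placed by its log2 change in the quantile-normalized fit, with red and blue for genes called higher or lower in both fits and black bars for list medians. The primary granule list has the highest median (1.65) and the Gimap GTPases the lowest (-1.66).

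The largest fall in GMP was that of Dntt, terminal deoxynucleotidyl transferase, which adds bases at the joints of antigen receptor genes. It was 10.79, 11.03, 10.92, 11.56 and 11.84 in MPP4 and 5.64 to 5.91 in GMP, 43.9-fold lower in GMP (-5.46 ± 0.21, adjusted p = 5.52e-17), with a wide gap between the groups. Its level in GMP was like that in long-term stem cells, 5.59 ± 0.24. Rag1, which starts receptor rearrangement, was 6.90 to 7.22 in MPP4 1 to 4, 8.77 in MPP4 5 and 6.01 to 6.29 in GMP. Its mean was 7.42 ± 0.77 in MPP4 and 8.07 ± 0.83 in Gr. Rag1 fell 2.40-fold, with a set-adjusted p of 0.0416. That call was lost on the centred values (0.0502) and without any 1 of GMP 1 to 3. It was also lost without MPP4 5, where the set-adjusted change was -1.09. Dntt and Rag1 were the 2 genes that fell among 15 measured in the list of receptor assembly and the pre-B receptor. The list's median of -0.10 had the other sign (0.01) on the deposited values. Rag2, the partner of Rag1, was called in the set-adjusted fit only. Igll1, Vpreb1, Cd79a and Cd79b, of the pre-B and B cell receptors, were not called. Vpreb1 ranged from 8.30 to 9.34 in MPP4 1 to 4 and was 11.52 in MPP4 5.

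Lymphoid surface and signalling genes were lower in GMP, with 7 of 19 measured genes called lower, none higher and a median of -0.51. Some were not particular to MPP4: Ltb was 9.98 ± 0.28 in long-term stem cells and 9.27 ± 0.43 in MPP4, and S1pr1 8.87 ± 0.14 and 8.55 ± 0.10. Lsp1 was 10.37 ± 0.21 and 10.66 ± 0.24, while Lax1 was lower in long-term stem cells (7.87 ± 0.18) than in MPP4 (8.47 ± 0.18). Il7r, the interleukin-7 receptor that lymphoid progenitors need, was 5.91 to 7.78 in MPP4 and 4.67 to 5.77 in GMP (-1.71 ± 0.32), and its set-adjusted p was 0.115 without MPP4 5. Lsp1, a leukocyte actin-binding protein, fell 4.11-fold, from 10.38 to 11.01 in MPP4 to 8.45 to 8.92 in GMP, and was higher again in Gr (12.56). Lax1, an adaptor of lymphocyte signalling, fell 3.48-fold, and Cd27, a receptor of the tumour necrosis factor family, by 1.33 ± 0.11 on the log2 scale. Ltb, lymphotoxin beta, fell 3.35-fold (set-adjusted p 0.0702 without MPP4 5), and S1pr1, the receptor for lymphocyte exit, fell 3.25-fold (0.106 without MPP4 4). Without MPP4 5, 4 of the 19 were called lower in both fits.

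The Gimap GTPases, small GTP-binding proteins linked to lymphocyte survival and encoded in 1 cluster, were the list with the lowest median, -1.66. Of 8 measured, 5 fell and none rose. Gimap6 was 10.74 to 11.45 in MPP4 and 7.43 to 7.63 in GMP, 12.7-fold lower (-3.67 ± 0.20, adjusted p = 7.13e-14). Gimap1 fell 5.68-fold, Gimap5 by 2.31 ± 0.26 on the log2 scale and Gimap7 3.78-fold. Gimap8 was called with a set-adjusted p of 0.0392 and lost the call without MPP4 4 (0.0829) or without MPP4 5 (0.103), and its change differed between the split comparisons (adjusted p = 0.0117). Gimap6 was not particular to MPP4 among the early cells, since its level was 11.68 ± 0.03 in long-term and 11.80 ± 0.17 in short-term stem cells and 9.94 ± 0.37 in CMP.

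MHC class II genes, which present peptides to helper T cells, were lower in GMP. Of 12 measured, 5 fell and none rose, with a median of -0.63. H2-Ob, a regulator of peptide loading, was 9.26 to 10.09 in MPP4 and 6.90 to 7.35 in GMP, 5.38-fold lower (set-adjusted p = 0.00188). The chains H2-Aa and H2-Ab1 fell 5.44-fold and 2.77-fold, but without MPP4 5 their set-adjusted p-values were 0.171 and 0.126. Cd74, the invariant chain, was lower by 1.04 in the first fit (adjusted p = 0.0117) and not called in the set-adjusted fit (0.166). Ciita, the activator of the class, was not called, with a change of 0.07. On the deposited values 1 of the 12 was called lower in both fits.

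Transcription factors split between both directions. Of 29 measured lymphoid factors 8 fell and 1 rose, with a median of -0.38. Tox, a chromatin factor of lymphoid development, was 9.01 to 9.36 in MPP4 and 6.91 to 7.57 in GMP, 4.44-fold lower. Its level was not particular to MPP4, at 9.86 ± 0.43 in long-term and 9.75 ± 0.14 in short-term stem cells. Bcl11a was 10.92 ± 0.19 in long-term stem cells and 10.73 ± 0.35 in MPP4, and Mef2c 10.43 ± 0.19 and 10.75 ± 0.25. Satb1 was lower in long-term stem cells (7.91 ± 0.11) than in MPP4 (10.96 ± 0.31). Satb1, a chromatin organiser, fell 2.78-fold, Bcl11a, a repressor needed for B cell development, 2.77-fold, Mef2c, a factor of lymphoid fate, 2.56-fold, and Tcf4, an E protein, by 1.21 ± 0.12 on the log2 scale. Ikzf1 (Ikaros), Sox4 and Etv6 were lower by 0.52, 0.45 and 0.76 and were called in both fits, but none of the 3 was called in both on the deposited values, where their changes in the first fit were 0.07, -0.13 and -0.15. Nfil3, a factor of innate lymphoid and myeloid cells, rose by 0.72 ± 0.19. Ebf1 and Pax5, which set B cell identity, were not called, and Ebf1 was 5.40 to 5.71 in GMP and 5.76 to 6.69 in MPP4.

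Of 27 measured myeloid factors 4 rose and 2 fell, with a median of -0.02 (0.42 on the deposited values). Cebpe, which drives late granulocyte genes, was 9.29, 9.47, 9.35 and 8.74 in GMP and 7.45 to 7.86 in MPP4, 2.88-fold higher (1.53 ± 0.12, adjusted p = 9.49e-11). Cebpd, its relative, rose 2.90-fold, with GMP 4 at 7.80 and GMP 1 to 3 at 8.81 to 9.14. Irf8, a factor of monocytes and dendritic cells, was 9.01 to 9.69 in GMP, 7.33 to 7.58 in MPP4 1 to 3 and 8.23 to 8.32 in MPP4 4 and 5. It rose 2.97-fold in the first fit and by 0.73 ± 0.18 in the set-adjusted fit (0.071 without MPP4 4), and the split comparisons differed (adjusted p = 0.00268). Zeb2, a repressor active in monocytes and dendritic cells, rose by 1.16 ± 0.12. Cebpa, which is needed to form GMP, was 9.76 to 9.94 in GMP and 8.57 to 9.49 in MPP4 (0.88 ± 0.17), and missed the threshold with the set as a block (adjusted p = 0.142). Spi1, which encodes PU.1, was 8.94 to 9.73 in GMP and 8.34 to 8.97 in MPP4, so the groups overlapped (set-adjusted p = 0.722). Gfi1, a repressor of monocyte genes in granulocyte precursors, overlapped too (0.37 in the first fit, set-adjusted p = 0.976). The immediate early genes Nr4a1 and Jun fell 4.26-fold and by 1.08 ± 0.11 on the log2 scale. Nr4a1 was 10.75 in MPP4 4 against 8.67 to 9.14 in the other MPP4 arrays, and without MPP4 4 the set-adjusted p was 0.0727 for Nr4a1 and 0.0501 for Jun, so that neither of the 2 falls was then called.

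Among 23 measured cytokine receptors of myeloid cells 3 rose and 2 fell, with a median of 0.16. Besides Csf1r, the chains of the interferon gamma receptor rose, Ifngr1 2.39-fold (1.26 ± 0.09, adjusted p = 2.49e-11) and Ifngr2 2.10-fold, the latter with a set-adjusted p of 0.301 without MPP4 4. Il18r1, the interleukin-18 receptor, fell 4.45-fold, with 0.185 without MPP4 5. Il17ra, the interleukin-17 receptor, was lower by 0.83 and lost the call without MPP4 4 (0.228). Csf3r, the receptor of granulocyte colony-stimulating factor, was 8.45 to 9.13 in GMP and 8.58 to 9.05 in MPP4 and was not called (adjusted p = 0.543). Csf2ra and Csf2rb, the chains of the receptor for granulocyte-macrophage colony-stimulating factor, were higher by 0.68 and 0.76 in the first fit only.

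**Figure D3:**
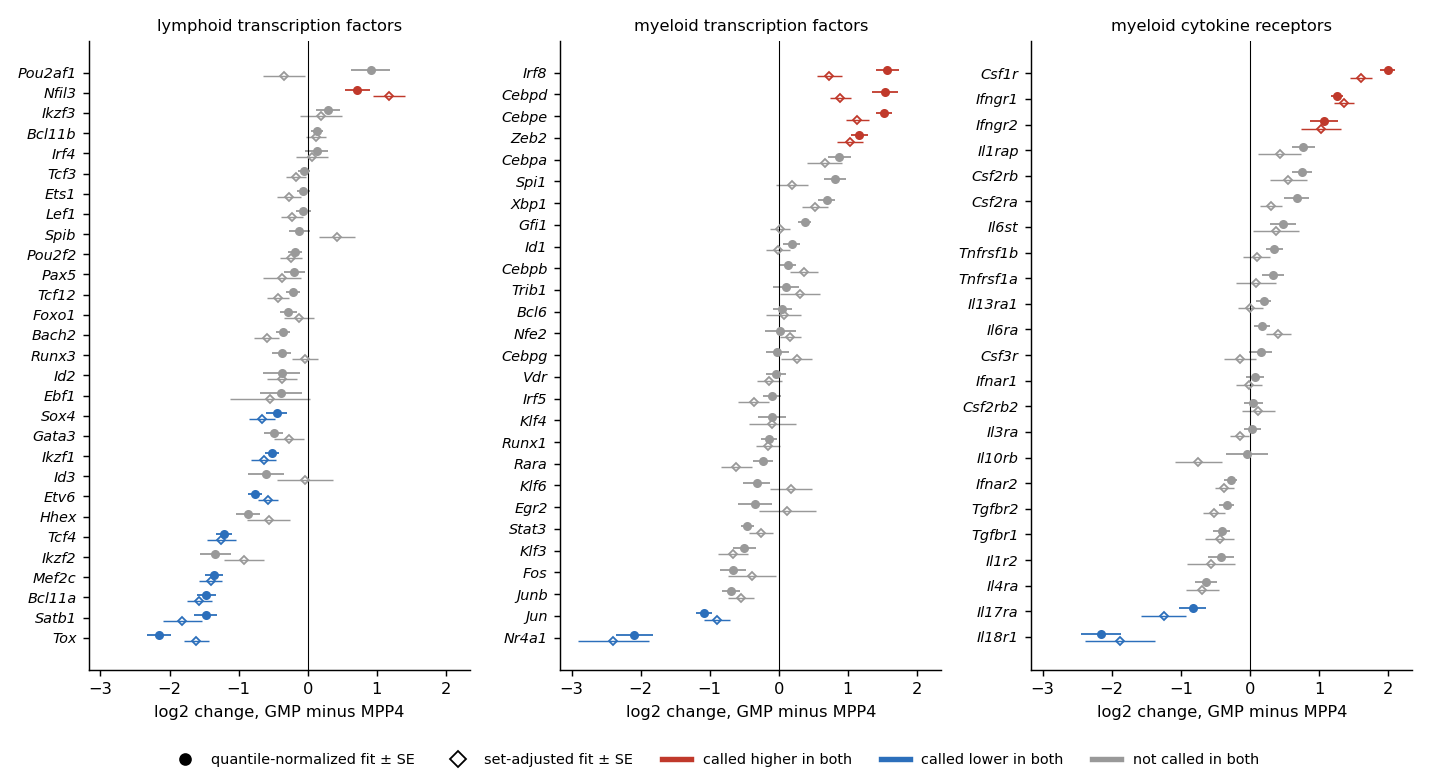
Log2 change with standard error for all measured lymphoid factors, myeloid factors and myeloid cytokine receptors, with filled circles for the quantile-normalized fit and open diamonds for the set-adjusted fit, coloured by the call in both. Tox, Satb1, Bcl11a and Mef2c lie below -1 in both fits, Cebpe and Csf1r above 1 in both, and the Spi1 diamond (0.20) lies below its circle (0.81).

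Genes of the stem cell programme were lower in GMP, with 13 of 28 measured genes called lower (2.32% of all genes), none higher and a median of -0.90. Hlf, a leucine zipper factor of stem cells, was 10.76 to 11.05 in MPP4 and 7.88 to 8.32 in GMP, 7.81-fold lower (-2.96 ± 0.12, adjusted p = 1.05e-16). Meis1, a Hox cofactor, was 10.94 to 11.50 in MPP4 and 7.76 to 8.85 in GMP, 7.71-fold lower. Angpt1, a ligand of the receptor Tie2, fell 7.24-fold, and Mecom, a zinc finger factor of stem cells, fell 6.50-fold, with a second probe at -1.40. Msi2, an RNA-binding protein, Eya1 and Eya2 fell by 1.83 ± 0.12, 1.78 ± 0.16 and 1.85 ± 0.14 on the log2 scale. In these arrays MPP4 still stood close to long-term stem cells for Meis1 (11.63 ± 0.09 in long-term stem cells) and Hlf (11.43 ± 0.30). Mecom was 10.59 ± 0.13 in long-term stem cells and 8.89 ± 0.27 in MPP4. Tal1, Gata2 and Lyl1, factors shared with erythroid and mast cells, were not called in both fits.

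Several of the largest falls lay outside the gene lists. Ctla2a, a cysteine protease inhibitor, was 11.12 to 11.95 in MPP4 and 7.38 to 8.28 in GMP, 13.3-fold lower, and the split comparisons differed in size (adjusted p = 0.0265). Ctla2b, its near-identical neighbour, fell by 2.53 ± 0.20 on the log2 scale, and the probes may not tell the pair apart. Wfdc17 fell 9.64-fold and Gcnt2, a glycosyltransferase, 8.04-fold. Stxbp4, which lies beside Hlf on chromosome 11 with 1 annotated gene between them, fell 8.54-fold, with a second probe at -1.73. Cysltr2, a leukotriene receptor, fell 7.50-fold. Rgs1, a brake on G protein signalling, was 11.30 to 11.94 in MPP4, 7.89 to 8.49 in GMP 1 to 3 and 9.69 in GMP 4. Rgs1 fell 8.53-fold, but the set-adjusted p was 0.155 without MPP4 4, 0.0521 without MPP4 5 and 0.118 on the deposited values. Iigp1, an interferon-inducible GTPase, was 7.64 to 8.67 in MPP4, 4.70 to 4.93 in GMP 1 to 3 and 6.25 in GMP 4, 8.50-fold lower in GMP.

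Type I interferon response genes were lower in GMP by median (-0.67), and none of 24 measured genes had a higher mean. The first fit called 17 of them lower, and 4 of these fell in both fits (2 on the deposited values). Ddx58 (RIG-I), a sensor of viral RNA, was 9.16 to 9.87 in MPP4 and 7.78 to 8.15 in GMP, 2.95-fold lower. Xaf1 fell 2.18-fold. Oasl2 and Ifit3, induced by interferon, were lower by 1.61 and 1.36 in the first fit and had set-adjusted p-values of 0.0668 and 0.066. In the Hox list 2 of 23 fell: Hoxa10 2.52-fold, with 0.106 without MPP4 5, and Hoxa9 by 0.62 ± 0.11 on the log2 scale, which was not called on the deposited values (adjusted p = 0.352). Of 21 megakaryocyte and erythroid genes 3 fell, and Car2, carbonic anhydrase 2, was the clearest, 6.90-fold lower (10.35 to 10.63 in MPP4, 7.52 to 7.94 in GMP).

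Of 27 measured mitosis genes 24 had a higher mean in GMP, with a median of 0.39, and 11 were called higher in the first fit, but 1 passed both fits (4 without MPP4 5, none without MPP4 4). That gene, Aurkb, a mitotic kinase, was 0.97 ± 0.13 higher, with a set-adjusted p of 0.171 without MPP4 4. Of 32 DNA replication genes 28 had a higher mean in GMP, with a median of 0.33, and 2 rose. Mcm10, a replication initiator, was one of these (0.71 ± 0.11, 0.122 without MPP4 4), and without that array neither was called. Of 19 glycolysis genes 4 rose and 1 fell. Pfkp, the platelet form of phosphofructokinase, was 9.20 to 9.38 in GMP and 7.77 to 8.06 in MPP4, 2.53-fold higher, and Hk3, the hexokinase of myeloid cells, rose 1.80-fold. The glucose transporter Slc2a3 fell 2.39-fold. Of 20 genes of the tricarboxylic acid cycle 2 rose, and none did so without MPP4 4.

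**Figure D4:**
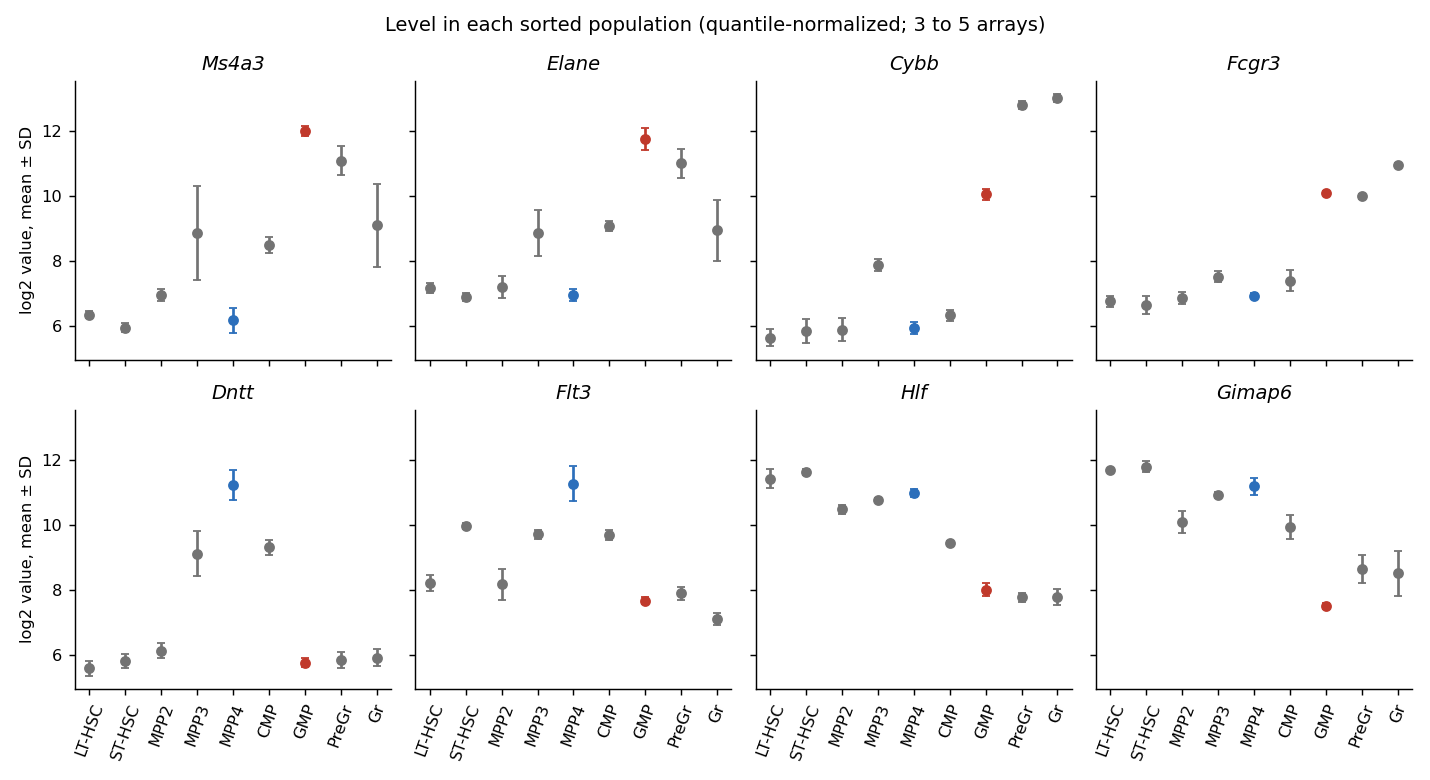
Mean ± SD of the quantile-normalized log2 value of 8 genes in the 9 sorted populations, each with 3 to 5 arrays, with GMP in red and MPP4 in blue. Ms4a3 and Elane are highest in GMP, Cybb is higher again in PreGr and Gr, Dntt and Flt3 are highest in MPP4, and Hlf and Gimap6 are high from long-term stem cells to MPP4.

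The levels of these genes in the other populations were read beside the difference. All CMP arrays shared a set with MPP4 1 to 3, and all PreGr and Gr arrays with GMP 1 to 3. The part of the sets in these levels was not tested. Ms4a3 was 8.50 ± 0.24 in CMP, 12.01 ± 0.16 in GMP and 11.09 ± 0.44 in PreGr. Elane was 9.07 ± 0.15 in CMP, 11.76 ± 0.34 in GMP and 8.94 ± 0.94 in Gr. In MPP3, a myeloid-biased multipotent population, Ms4a3 had a mean of 8.86 with an SD of 1.44, so that its level there and in CMP did not differ beyond the spread. Mpo was 12.48 ± 0.23 in MPP3 and 12.69 ± 0.07 in CMP, both above MPP4 and within 1 log2 unit of GMP. Cybb followed another order, since CMP (6.33 ± 0.16) and MPP4 (5.95 ± 0.17) were low and PreGr reached 12.80 ± 0.12. In MPP3, Cybb was 7.88 ± 0.18, above both CMP and MPP4. Dntt was 9.12 ± 0.69 in MPP3 and 9.31 ± 0.23 in CMP, between MPP4 and GMP. Meis1 and Angpt1 stayed at 10.78 ± 0.02 and 11.26 ± 0.09 in CMP, close to MPP4, and were lower in GMP.

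Markers of mature cells outside the gates were counted beside these results. Of 17 measured T and NK cell markers 2 rose, Gzmb (granzyme B) by 2.63 ± 0.17 and Nkg7 by 2.07 ± 0.28, and the mean level of the list was 6.77 to 7.01 in GMP and 6.55 to 6.68 in MPP4. The defining markers Cd3e and Ncr1 were 7.37 and 5.19 in GMP and 7.32 and 5.46 in MPP4. The call of Nkg7, also a member of the primary granule list, was lost on the deposited and the centred values (set-adjusted p = 0.0648 and 0.057). It was also lost without any 1 of GMP 1 to 3 or MPP4 1 to 4. Of 14 markers of B and plasma cells 1 fell (Sdc1) and none rose, with a mean level of 6.44 to 6.59 in GMP and 6.47 to 6.79 in MPP4. Of 13 markers of mature neutrophils 2 rose, S100a8 and Cxcr2, and the list was at 7.10 to 7.92 in GMP and 6.46 to 6.66 in MPP4. The first fit called 6 of the 13 higher and none lower, and 12 had a higher mean in GMP. The list's median change was 0.46 in the first fit and 0.11 in the set-adjusted fit. Ly6g, which defines mature neutrophils, was 5.33 in GMP and 4.97 in MPP4. Cxcr2, 4.25-fold higher in GMP, had a mean of 9.06 in CMP, and its call was lost without MPP4 4 (0.191). Of 14 macrophage markers Adgre1 rose alone, with C1qa at 7.48 and 7.20, and the list was at 6.71 to 6.91 in GMP and 6.42 to 6.61 in MPP4. The first fit called 3 of the 14 higher and 1 lower. The largest change was that of Vcam1, 1.98 in the first fit (adjusted p = 6.81e-06). Its set-adjusted change was 1.16 and was not called (adjusted p = 0.0663). None of 8 markers of erythroblasts and platelets was called, with a mean level of 6.75 to 6.98 in GMP and 6.88 to 7.08 in MPP4. Of 14 markers of endothelium and stroma Emcn fell, from 8.60 in MPP4 to 5.71 in GMP, while Cdh5, another endothelial gene, was 6.91 and 6.83, and the list was at 6.75 to 6.84 in GMP and 6.92 to 7.01 in MPP4. The part of such cells in the results was not tested.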

How the data were processed

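RNA of sorted mouse marrow cells was amplified and hybridised to Affymetrix whole-transcript arrays. The deposited values are log2 intensities made by the authors with RMA, per the submitters' processing notes, with no version or genome build given in the sources used here. Of 35557 probes, 21789 had 1 gene symbol, 1621 several and 12147 none in the platform annotation. The brightest probe stood for each of 19938 genes, and symbols were updated through RefSeq (GRCm38.p6). Array sets were found from the values: arrays that share 2 or more identical values, checked against array medians. All 31 arrays were quantile-normalized together and fitted with limma 3.58.1 (R 4.3.3), with 1 mean per population, 22 residual degrees of freedom and two-sided tests. The same fit with the array set as a block had 18. Benjamini-Hochberg adjusted p-values cover all genes. GMP and MPP4 come from disjoint sets except for GMP 4, MPP4 4 and MPP4 5. The number of arrays limits the precision.

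On simulated data of 19938 genes in the GMP to MPP4 comparison, the rule of 2 fits recovered 68 of 100 genes changed 2-fold. It recovered 96 of 100 changed 4-fold and called 2 unchanged genes. The simulation changed no other genes, drew a random offset for each gene and set, and let no change differ between sets. In the real arrays the change differed between the split comparisons for 450 genes. The rates therefore hold for the simulated setting only. The named genes are the 12 largest rises and falls called in both fits without overlapping arrays, up to 4 called members of each list by size, the sort markers, and members of the regulator and receptor lists. Predicted or unnamed genes, Xist and Y-linked genes, and genes with both means under the median of all genes were passed over. Other genes named, such as Prtn3, Mpo, Il7r and the markers of other cells, were added after their values were seen. Zfpm1, Oas2, Parp9, H2-DMa, Fen1, E2f8, Pes1, Idh3a, Dld, Pgam1, Fdps, Itga1, F2r, Ms4a6c and Bid met the rule and are left out of the text or given only in part. The members and gene lists were chosen with earlier results of these data known. The alternatives tried were the scaling, the array set, the filter on dim genes, the probes, the variance model and leaving out arrays.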

Additional observations from a re-analysis of the deposited data

Results flagged for a closer look

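For each named gene the highest and lowest array of each group were set against the rest of the group by Dixon's ratio of gap to range. Of 204 groups tested, 19 (9.31%) held an array past the 95% limit, where chance gives about 1 in 20. Of these, 11 were in GMP 4, 5 in MPP4 4 and 3 in MPP4 5, all arrays of the set that both populations share. GMP 4 stood below the other GMP arrays for Ly6a2 (8.81 against 10.58 to 10.92), Hoxa9 (7.69 against 8.06 to 8.12), Ssr4 (11.01 against 11.42 to 11.47), Ftl1 (10.30 against 10.97 to 10.98) and Fdps (8.77 against 9.89 to 10.05). It stood above them for Iigp1 (6.25 against 4.70 to 4.93), Hlf (8.32 against 7.88 to 7.95), S1pr1 (7.54 against 6.53 to 6.70), Tox (7.57 against 6.91 to 6.98), Idh3a (9.52 against 9.27 to 9.29) and Pfkp (9.38 against 9.20).

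MPP4 4 stood above the other MPP4 arrays for Lax1 (8.79 against 8.35 to 8.42) and Nr4a1 (10.75 against 8.67 to 9.14). It stood below them for Il18r1 (7.05 against 8.06 to 8.33), Ifngr2 (7.58 against 8.39 to 8.56) and Bid (7.15 against 7.64 to 7.82). MPP4 5 stood below the others for Hlf (10.76 against 11.02 to 11.05) and above them for Rag1 (8.77 against 6.90 to 7.22) and Clec7a (6.59 against 6.12 to 6.22).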

How the results depend on the processing

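The first fit called 4964 genes, 1972 with the array set as a random block and 9576 with array weights, and 3690 to 5633 with 1 array left out. The set-adjusted fit called 1143, 702 without MPP4 4, and 702 to 1380 with 1 array left out. Both fits called 991 genes together, 612 without MPP4 4, and 612 to 966 with 1 array left out. Without GMP 4 the set-adjusted contrast could not be fitted. No paired samples are named in the labels: residuals of same-numbered GMP and MPP4 arrays correlated at 0.20, 0.26, 0.03 and 0.35, and GMP 4 alone correlated best with its own number. GMP 1 to 3 correlated positively with MPP4 1 to 3 and negatively with MPP4 4 and 5, and GMP 4 the reverse. The correlations thus followed the array sets and cannot decide on pairing. The labels state no pairing, so the numbers were not taken as pairs, although sex-linked transcripts recurred by number. With the replicate number as a block the first fit called 5526 genes, the set-adjusted fit 1344 and both 995, and 13 named genes, Iigp1 (adjusted p = 0.0609) among them, lost the set-adjusted call. Of 2141 results of named genes under alternatives to the first fit, 2118 kept direction and side of the threshold, 18 lost the call, 5 gained one and none changed direction. In the set-adjusted fit 99 of 1325 such results, in 31 genes, lost the call and none changed direction. Of the 102 named genes 99 were called in both fits, and most were chosen for that call, so these shares do not speak for all genes. Of the 37 gene lists, markers of other cells included, 36 had a median that moved in 1 or more settings. A move was a shift of at least the pooled SD of the arrays' list medians. Array signal near background limits genes with low values in both groups.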

Other observations

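Enzymes of glutathione and NADPH metabolism were among the genes higher in GMP outside the gene lists, and were picked after their values were seen. Gsr, glutathione reductase, was 10.69 in GMP and 8.38 in MPP4 (a change of 2.31 ± 0.15). Idh1, the cytosolic isocitrate dehydrogenase that makes NADPH, rose by 2.27 ± 0.16, Ptgr1, a reductase of prostaglandins and reactive aldehydes, by 2.21 ± 0.18, and Msrb1, which repairs oxidised methionine, by 1.85 ± 0.17. Mgst1, a microsomal glutathione transferase, rose by 1.97 ± 0.38. Not all genes of this kind did so: Cat, catalase, and Gclc, a subunit of the enzyme that starts glutathione synthesis, changed by -0.06 and -0.01 and were not called. Other rises picked in the same way were Gpr141, an orphan receptor (3.68 ± 0.19), Met, the receptor of hepatocyte growth factor (3.14 ± 0.20), Prom1, which encodes CD133 (2.31 ± 0.18), and Chd7, a chromatin remodeller (2.18 ± 0.25).

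Some genes known from lymphocytes fell, again picked after their values were seen, with no list behind them. Lat, an adaptor of T cell receptor signalling, was 9.54 in MPP4 and 7.37 in GMP (-2.17 ± 0.19), and Prkcq, a protein kinase C, 8.51 and 6.23 (-2.28 ± 0.18). Cd96, a lymphocyte receptor, fell by 1.88 ± 0.22 on the log2 scale. Surface genes of early progenitors fell too: Calcrl, a subunit of adrenomedullin receptors, by 2.29 ± 0.13, Vldlr, a lipoprotein receptor, by 2.65 ± 0.15 and Adgrg1, an adhesion receptor, by 1.71 ± 0.15.

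The labels give no sex. Xist was 5.39, 11.41, 9.91, 11.83 and 5.63 in MPP4 1 to 5 and between 5.70 (GMP 1) and 11.23 (GMP 4) in GMP, with GMP 2 at 10.36. Eif2s3y, on the Y chromosome, was 9.19, 7.67, 9.41, 4.22 and 9.04 in MPP4 and 9.21, 7.87, 8.89 and 4.51 in GMP. The levels recurred by replicate number: GMP 1 and MPP4 1 were low for Xist, GMP 4 and MPP4 4 were high for Xist and low for Eif2s3y, and arrays 2 and 3 of both groups held both transcripts. Uty and Kdm5d, also on the Y chromosome, were likewise lowest in GMP 4 and MPP4 4. Whether the numbers mark shared sorts is not given in the sources used here.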
